A study of Danio rerio with 19 samples.

Results

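Clustered H3K9me3 domains are places where several called peaks of histone H3 lysine 9 trimethylation lie close together, and 1169 of them were found in zebrafish brain. They were chosen by peak position alone. Peaks of the 6 deposited lists that overlapped by 1 bp or more were merged into union regions, chromosome 4 from 25 Mb and the unplaced scaffolds were set aside, and a domain was any run of 3 or more regions with each 1000 bp or less from the next. The domains held 4328 of the 82989 union regions on these chromosomes (5.22%), and 90523 regions were found over all sequences. A further 6823 runs had 2 regions, and 65015 regions stood alone.

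The study asked whether heterochromatin in the brain differs with age and with the time of day. Brains of wild-type zebrafish of the SAT strain, from a stock centre, were taken at 4, 12 and 20 months (4M, 12M and 20M) at ZT4 or ZT16, that is 4 or 16 h after lights on. All fish had a 12:12 light:dark cycle for a week before the tissue was removed, and the labels name no mutation and no drug. Every group had 3 chromatin immunoprecipitation libraries with 1 H3K9me3 antibody, and the peaks of the 3 libraries were deposited as a single list. The whole brain mixes many cell types, and the number of fish behind a library is not given in the sources used here. One library made with a GFP antibody had no list, so no background level stands beside the peaks.

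Because each group is 1 list, no value below has a replicate error and no difference between groups could be tested. The exact binomial (Clopper-Pearson) 95% intervals cover counting error only, and neighbouring regions of a domain share their place, so they are not independent. The methods name a common sequencing depth, but the lists do not hold the reads behind each library, so the depth of a list was not analysed here. The lists are of very unequal length, with 70317 (ZT4) and 55874 (ZT16) peaks in the 4M lists, 29 and 8755 in the 12M lists of these times, and 19177 and 87948 in the 20M lists. A region that a list does not hold was not called there, which is not the same as a region without the mark.

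H3K9me3 marks compacted, silent chromatin. It is laid down by the SUV39 and SETDB1 families of methyltransferases and read by heterochromatin protein 1 (HP1), which can recruit more of the methyltransferase so that the mark spreads along neighbouring nucleosomes. It is best known over pericentromeric satellites and transposable elements, and it also covers arrays of related genes and single silenced genes. Lengthy blocks of the mark are often returned by a peak caller as chains of narrow peaks, so the number and spacing of peaks in a chain describe the calls as well as the chromatin.

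Most domains were small. Of the 1169, 814 (69.6%) had 3 regions, 177 had 4, 109 had 5 or 6, and 69 had 7 or more, up to 17. The span from the first base to the last ran from 513 to 21736 bp, with a median of 1545 bp and quartiles of 1209 and 2079 bp. Together the domains spanned 2.19 Mb, of which 0.732 Mb lay inside regions, and the median domain had 29.4% of its span covered. Regions inside domains had a median length of 102 bp, against 78 bp in runs of 2 and 74 bp for single regions. Only 23 domain regions were longer than 1000 bp. A domain was therefore mostly open space between short peaks.

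The 3159 gaps between neighbouring regions of a domain had a median of 415 bp, with quartiles of 255 and 631.5 bp, and the median distance from centre to centre was 595.5 bp. In runs of 2 the median gap was 473 bp. Gaps under 150 bp numbered 44, while 351 lay at 150 to under 200 bp and 360 at 200 to under 250 bp. The distribution thus began abruptly near 150 bp. Within a single list no 2 peaks lay closer than 157 bp (20M ZT16) to 270 bp (12M ZT4), which is a property of the calls.

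**Figure D1:**
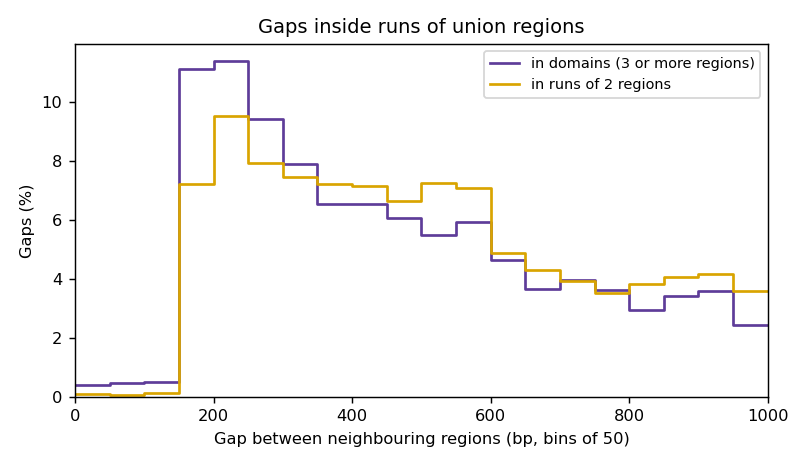
Gaps between neighbouring regions in bins of 50 bp (x axis) as a percent of all gaps of their kind (y axis), for domains and for runs of 2 regions. Both curves rise steeply at 150 bp, and domains have the larger share of short gaps, with a median of 415 bp against 473 bp.

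The limit of 1000 bp did not fall in a natural break. Over all regions, 710 neighbouring pairs had a gap within 100 bp below the limit and 769 had one within 100 bp above it. Candidate neighbours were thus about as common just outside the rule as just inside it.

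The 6 lists shared the domains very unequally. The 20M ZT16 list held 95.1% of the 4328 domain regions (95% interval 94.4 to 95.7), where it held 98% of all union regions. The 4M ZT4 list held 47.4% (45.9 to 48.9), against 77.7% of all regions. The 4M ZT16 list held 34.7% (33.2 to 36.1), against 63%. For 20M ZT4 the share was 13.2% (12.2 to 14.3), against 21%, and for 12M ZT16 it was 6.42% (5.71 to 7.20), against 9.39%. The 12M ZT4 list held 1 domain region (0.0231%, 0.000585 to 0.129), against 0.0313% of all regions. Every list thus held a smaller share of domain regions than of all regions. For 12M ZT4 that rests on 1 region, and its interval takes in the share of all regions. The gap was widest in percentage points in both 4M lists. All lists went into the rule, so these shares are a description.

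These differences shrank or turned when weak peaks were removed. Such a filter takes away regions and domains by construction, and the cause of the change was not tested. When peaks with a score under 30 were removed before the regions were merged, 576 domains were left, and the 4M ZT4 list held 85.4% of their regions against 86.8% of all regions. For 4M ZT16 the shares were then 71.4% and 71.1%, for 20M ZT4 they were 20.3% and 16.9%, and for 12M ZT16 they were 0.779% and 0.571%. With a score of at least 20 there were 682 domains. Then 4M ZT4 held 73.7% against 83.3%, the 4M ZT16 list 61.1% against 68.4%, the 20M ZT4 list 21.6% against 21.3% and the 12M ZT16 list 3.98% against 3.45%. The order of domain regions below all regions was thus turned for 20M ZT4 and 12M ZT16 at either filter and for 4M ZT16 at 30, while at 4M ZT4 the difference shrank but kept its direction. It was turned at either filter for the 12M ZT4 list of 29 peaks as well, with 0.0458% against 0.0250% at 20 and 0.0556% against 0.0138% at 30. These 12M ZT4 shares rest on too few regions to be read as a difference. No interval was taken for the filtered shares, so small turns, such as 71.4% against 71.1%, may lie within counting error. One filter does not act alike on all lists, whose median scores run from 17 (the 12M ZT16 list) to 187 (the 20M ZT16 list). The scores run upward from 10 and their scale is not named. If they were 10 times the −log10 of q, as this caller often writes them, peaks under 20 would lie above the stated FDR, and this was not tested. Apart from these filters, scores are compared only within a list.

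Domains were more often listed whole at 20M ZT16 than anywhere else. That list held all regions of 1049 domains, some in 98 and none in 22. The 4M ZT4 list held all regions of 412, some in 441 and none in 316. The 4M ZT16 list held 229 whole, 465 in part and 475 not at all. At 20M ZT4 only 21 were whole, with 389 in part and 759 absent, and at 12M ZT16 the numbers were 7, 196 and 966. The 12M ZT4 list held 1 region in 1 domain and none in the other 1168. The 20M ZT4 and 12M ZT16 lists thus left most domains untouched and seldom held every region of those they reached.

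**Figure D2:**
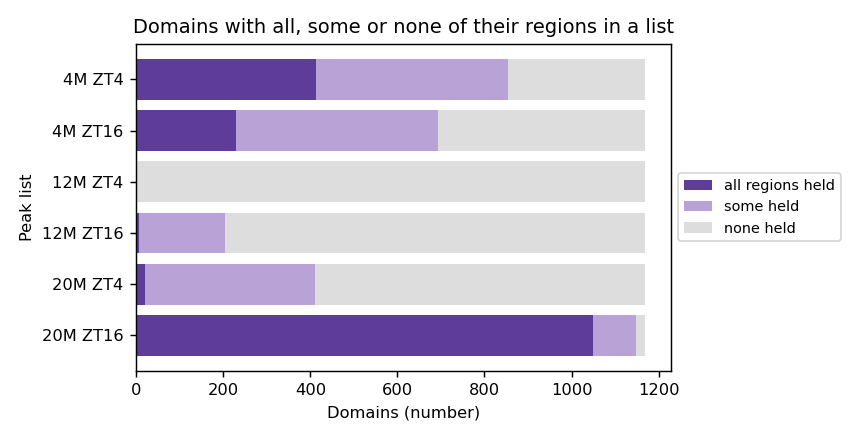
Number of the 1169 domains (x axis) of which each list (y axis) held all, some or none of the regions. The 20M ZT16 list held 1049 in full, the 4M ZT4 list 412 and the 20M ZT4 list 21.

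Listing followed the size of the run. The 4M ZT4 list held 80.1% of single regions, 75.8% of those in runs of 2, 64.6% in domains of 3, 42.5% in domains of 4, 20.5% in domains of 5 or 6 and 9.21% in domains of 7 or more. The 4M ZT16 list fell over the same steps from 65.1% to 62.0%, 51.5%, 25.7%, 7.92% and 2.51%. At 20M ZT4 the share was 21.0% of single regions, 23.5% in runs of 2, 19.5% in domains of 3 and 0.838% in those of 7 or more. That order was not shared by 20M ZT16, which held 98.2% of single regions, 95.9% in domains of 3, 91.5% in domains of 4 and 97.8% in domains of 7 or more. The contrast in the largest runs is in part set by the rule. Taken alone, 20M ZT16 gave chains of up to 18 regions and no other list more than 6, so the largest runs needed its peaks.

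**Figure D3:**
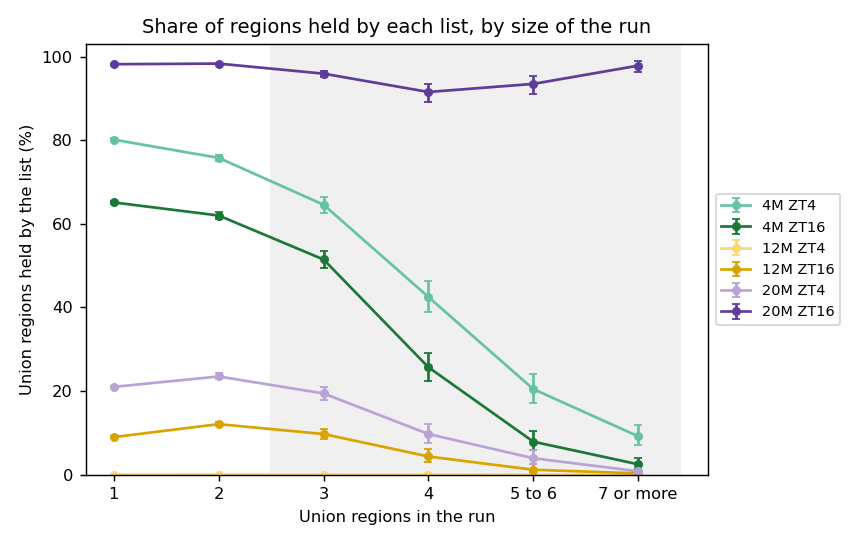
Percent of union regions held by each list (y axis) against the number of regions in the run (x axis), where the grey field marks domains and bars are exact binomial 95% intervals. The 4M ZT4 list falls from 80.1% of single regions to 9.21% in domains of 7 or more, while the 20M ZT16 list stays at 91.5% or above. The runs were built from these same lists, so the axes are not independent.

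The scores moved with size as well. In the 20M ZT16 list the median peak score was 193 for single regions, 188 in runs of 2, 154 in domains of 3, 23 in domains of 4 and 19 in both larger classes. As a percentile within that list the median fell from 52.1 for single regions to 39.3 in domains of 3 and to 7.58 in domains of 7 or more. Scores under 20 made up 5.60% of its peaks at single regions, 16.9% in domains of 3 and 57.2% in domains of 7 or more. The peaks were broader too, with a median length of 72 bp at single regions, 80 bp in domains of 3 and 165 bp in domains of 7 or more. Larger domains were thus chains of weaker and wider peaks.

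The highest 20M ZT16 score of each domain fell mainly between domains of 3 and the rest. In domains of 3 the best peak had a median score of 247, and the best was under 30 in 158 of 801 (19.7%). The median of the best score was 33 in domains of 4, 27 in domains of 5 or 6 and 29 in domains of 7 or more. It was under 30 in 45.0%, 56.5% and 53.6% of these, so the 3 larger classes stood close together with no steady order. In domains of 7 or more the range was 21 to 472, so a few large domains did contain a strong peak. The few 4M ZT4 peaks in domains of 7 or more, 56 in number, were also weak for their own list, with a median percentile of 2.22 against 48.9 in domains of 3.

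**Figure D4:**
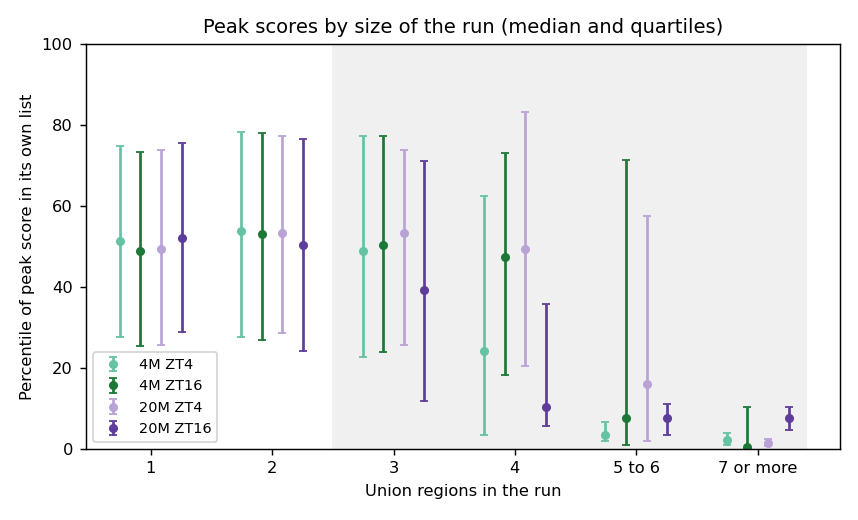
Percentile of each peak's score within its own list (y axis) by number of regions in the run (x axis), as the median with quartiles, for the 4M and 20M lists. For 20M ZT16 the median falls from 52.1 at single regions to 7.58 in domains of 7 or more.

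At the strong end, 21 domains were held in full by 4 or more lists, 7 of them by 5. They had 64 regions on 15 chromosomes, and none had more than 4 regions. Their peaks stood high in the well-filled lists, with a median percentile of 91.5 and 90.3 in the 4M lists (ZT4 and ZT16) and of 94.3 in the 20M ZT16 list. In the shorter lists it was 65.9 at 20M ZT4 and 47.8 at 12M ZT16. These groups of few regions, strong in the well-filled lists, were listed at 4M and 20M and at both times. That follows from the way they were picked, since 12M ZT4 held no domain in full.

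All lists but 12M ZT4 held every region of the domain at chr2:59520143-59522819 (GRCz10), which has 3 regions in 2677 bp, and its highest score in these lists, taken by age and then by time, was 281, 169, 27, 44 and 537. The domain at chr5:5898215-5900953 was of the same kind, with 3 regions in 2739 bp and highest scores of 260, 165, 22, 40 and 515 in the same order. Another 3-region domain, chr16:5083785-5085130, was tighter at 1346 bp, with highest scores of 266, 163, 28, 46 and 495. In all of these the 20M ZT16 list carried the highest number, but scores are not on a common scale between lists. The domains chr16:48994227-48996432 (2206 bp) and chr18:47801395-47802655 (1261 bp) were held in full by the same lists.

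A single domain had a region in all 6 lists, and it is named because it was noticed after its values were seen. It lies at chr1:2917217-2919355, spans 2139 bp and has 3 regions. Both 4M lists and 20M ZT16 held all 3, and 12M ZT4, 12M ZT16 and 20M ZT4 held 1 each. Its 12M ZT4 peak had a score of 60, the highest in that list of 29.

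At the other end, 287 domains (24.6%) had peaks in the 20M ZT16 list and in no other. They held 1197 regions on all 25 chromosomes, with a median of 4 and at most 12 regions. Their scores ran from 10 to 139 with a median of 18, at the 6.67 percentile of that list. Counted by region, 2203 domain regions (50.9%) were listed at 20M ZT16 only, against 17969 (21.7%) of all regions. Without these 287 domains the 4M ZT4 list held 65.5% of the regions of the remaining 882, against 77.7% of all regions. The 4M ZT16 list held 47.9%, against 63%. These shares exceed those over all domains by construction, since neither 4M list held any region of the 287.

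The domain with the most regions lies at chr19:20307839-20319411. It has 17 regions in 11573 bp, and its regions range from 39 to 1432 bp. All 17 were held by 20M ZT16, with 2 held by 4M ZT4 and 1 by 4M ZT16, and the other 3 lists held none. Its 20M ZT16 scores lay between 13 and 24, all in the lowest 10.7% of that list, so the chain with the most regions was built of weak calls.

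The longest domain, chr5:816094-837829, was different in kind. It spans 21736 bp, and 81.2% of that span is covered, the highest coverage of any domain, by 12 regions of which the longest measures 5766 bp. The 20M ZT16 list held all 12 with scores of 13 to 48, and the 4M ZT16 list held 1 with a score of 12. No other list held any of it. This was the nearest to an unbroken block of called mark among the domains.

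A further group of chains of 11 to 13 regions was held mainly by 20M ZT16, with a few regions held by 4M ZT4. The domain chr20:35968454-35975694 has 13 regions in 7241 bp, of which 20M ZT16 held 12 with scores of 15 to 35 and 4M ZT4 held 1 with a score of 37. The domain chr15:15164371-15171303 has 13 in 6933 bp, of which 20M ZT16 held 12 and 4M ZT4 held 1. At chr11:43748053-43756231 the 20M ZT16 list held all 11 regions, with scores of 13 to 25, and the 4M ZT4 list 3. At chr14:17909686-17917373 they held 10 and 1 of 11. In each of these the other 4 lists held none.

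A pair of domains with 12 regions each was listed at 20M ZT16 alone. One is chr22:15262436-15270826, with scores of 12 to 32 over 8391 bp. The other is chr1:42638468-42644558, with scores of 10 to 26 over 6091 bp. These are the fullest domains that only 1 list held.

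Among all 69 domains of 7 or more regions, the 20M ZT16 list held every region in 57. The 4M ZT4 list held none in 34 and at most 1 in 56, the 4M ZT16 list none in 59, the 20M ZT4 list none in 64 and the 12M ZT16 list none in 67. One exception was chr7:11151600-11156087, with 7 regions in 4488 bp. In it 20M ZT16 held 7, 4M ZT4 held 6, 4M ZT16 held 5, and 12M ZT16 and 20M ZT4 held 1 each. Its highest scores were 472 in the 20M ZT16 list and 219 in the 4M ZT4 one. The median percentiles of its peaks were 54.1 and 47.7 in these lists and 18.2 at 4M ZT16. A long chain of peaks near the middle of the 4M ZT4 and 20M ZT16 lists was thus listed in young brain too. The 12M ZT16 list also reached chr5:54826504-54832519, where it held 1 of 10 regions with a score of 10, 4M ZT4 held 1 and 20M ZT16 held 10. At chr14:28492895-28497795 the 4M ZT16 list held 1 and 20M ZT16 held 7 of 7.

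Domains listed only in young brain were few and weak. There were 15 with peaks at 4M ZT4 alone, 1 at 4M ZT16 alone and 2 in both 4M lists and no other. The 15 at 4M ZT4 held 55 regions on 11 chromosomes, with scores from 10 to 40, a median of 18 and a median percentile of 2.84. The largest, chr3:5341700-5345909, has 6 regions in 4210 bp with scores of 14 to 20. The next named one, chr1:33587816-33590668, has 4 in 2853 bp with scores of 11 to 19. The only domain of 4M ZT16 alone, chr21:18475580-18477259, has 3 regions with scores of 11 to 17. No domain was particular to a 12M list or to 20M ZT4. Counted by region, 165 domain regions (3.81%) were listed at 4M ZT4 only, against 1217 (1.47%) of all regions. At 4M ZT16 only there were 22 (0.508%, against 0.235%), and at 20M ZT4 only 14 (0.323%, against 0.141%). At 12M ZT16 only there was 1 (0.0231%, against 0.0325%). A larger share of such regions in domains was thus not particular to 20M ZT16.

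Only 3 domains had a 20M ZT4 peak and no 20M ZT16 peak, and the rule names 2 of them. At chr17:31082961-31084307, with 3 regions in 1347 bp, 4M ZT16 held 3 and 4M ZT4 and 20M ZT4 held 1 each. At chr23:987423-988627, 4M ZT4 and 20M ZT4 held 2 each of 3 regions. All scores at these domains were 20 or less, at the weak end of every list that held them.

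The most evenly spaced chains were the low end of a wide range. Among the 178 domains of 5 or more regions, the coefficient of variation of the centre-to-centre distance had a median of 0.371. Its quartiles were 0.285 and 0.452. It was lowest at chr25:13114240-13117804, where 5 regions stood on average 780 bp apart with a variation of 0.0550, or 5.50%. The tightest of the regular chains was chr1:43598858-43600123, with 5 regions 290.5 bp apart on average. The others were chr6:7808657-7810777 at 505 bp, chr9:56461494-56463526 at 477 bp and chr7:26607411-26611648 at 786 bp. In all but the first named the variation was 11.2 to 14.6%. They had no spacing in common, and their median 20M ZT16 scores lay between 14 and 18.

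Where a list held only some regions of a domain, the held ones mostly had the higher scores at 20M ZT16. Regions without a 20M ZT16 peak were left out, as were domains then left with no held or no unheld region. Taken as the median region of each domain and then the median over domains, the score was 177.5 for regions that 4M ZT4 held and 31.25 for those it did not, over 392 of 441 such domains. For 4M ZT16 these medians were 231.5 and 86 over 447 of 465 domains, for 20M ZT4 308.5 and 154 over 372 of 389, and for 12M ZT16 371.5 and 159.75 over 194 of 196. A held region had the highest 20M ZT16 score, with no tie, in 83.4% of these domains for 4M ZT4 and 93.1% for 4M ZT16. It did so in 85.5% for 20M ZT4 and 90.7% for 12M ZT16. The more regions of a domain a list holds, the likelier one of them has the top score. Exactly 1 region was held in 167 domains for 4M ZT4 and in 277 for 20M ZT4. No expected share was computed, so these percents do not compare the lists. Place in the chain differed less. In domains of 3 with 1 region held by 4M ZT4, it was the first in 32, the middle in 32 and the last in 33, and for 20M ZT4 the counts were 80, 83 and 72.

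Domains also lay near each other. When domains 20 kb or less apart were joined into neighbourhoods, a distance chosen after the data were seen, 314 domains fell into 89 neighbourhoods and 855 stood alone. In 29 neighbourhoods there were 4 or more domains. These held 175 domains and 866 domain regions (20.0%) on 18 chromosomes, and each was 11.7 to 81.7 kb long. They took in 36 of the 69 domains of 7 or more regions. Regions stood there at 1.01 per kb, against 0.0645 per kb over the chromosomes, a density that follows from how neighbourhoods were built.

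Inside these 29 neighbourhoods few regions were held by any list but 20M ZT16. That contrast is in part set by the choice of dense chains. Taken alone, 20M ZT16 gave chains of up to 18 regions and no other list more than 6. Of 1075 regions there, within domains or between them, 985 (91.6%) were listed at 20M ZT16 only, against 21.7% of all regions. In all, 20M ZT16 held 1051 (97.8%), close to its 98% of all regions. The 4M ZT4 list held 83 (7.72%, against 77.7% of all regions). The 4M ZT16 and 20M ZT4 lists held 8 each (0.744%, against 63% and 21%). Both 12M lists held 0, against 9.39% of all regions for 12M ZT16 and 0.0313% for 12M ZT4. A count of 0 allows a share of up to 0.279%, taken as 3 divided by the 1075 regions as if they were independent. For 12M ZT4 that bound lies above its share of all regions, so its 0 shows no difference. The median 20M ZT16 score was 18 and 62.4% of its peaks there scored under 20. Outside them the domains still differed from all regions, with 57.1% of domain regions held by 4M ZT4 and 43.1% by 4M ZT16.

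**Figure D5:**
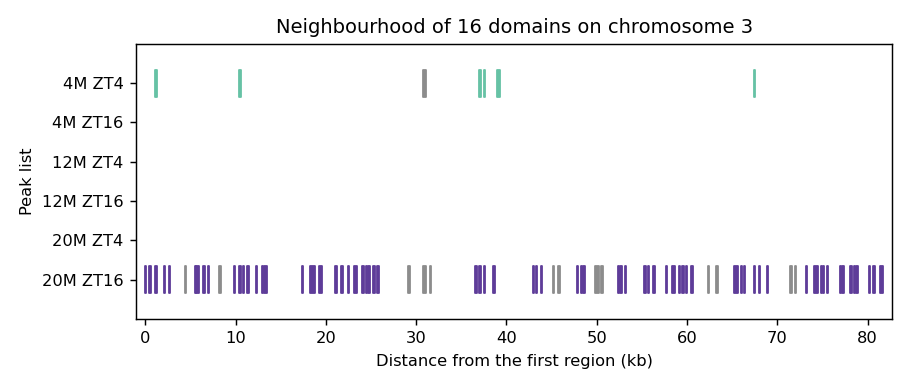
Called regions of each list (y axis) along the neighbourhood with the most domains, in kb from its first region (x axis), with regions of its 16 domains in colour and other regions in grey. The 20M ZT16 list has 82 short regions spread from end to end of the 81.7 kb, with open stretches between them. The 4M ZT4 list has 7 and the other 4 lists have none.

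The neighbourhood with the most domains, chr3:35743318-35825056, has 16 of them with 70 regions, and 83 regions in all. Of these, 20M ZT16 held 82, the 4M ZT4 list 7 and the other lists none, and no 20M ZT16 score there exceeded 37. Next came chr6:45292535-45357286, with 11 domains and 62 regions, all held by 20M ZT16 and 1 by 4M ZT4. A neighbourhood on chromosome 1, chr1:43563565-43628998, has 10 domains and 65 regions, of which 20M ZT16 held 65 and 4M ZT4 held 3, and it contains the tightest regular chain named above. These 3 blocks had median 20M ZT16 scores of 17 to 18.

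The fullest domain of all lies in a neighbourhood of 7 domains, chr19:20307839-20365475, where 20M ZT16 held 53 of 54 regions and 4M ZT4 held 6. The most even chain opens another of 7, chr25:13114240-13158527, where 20M ZT16 held all 48. At chr11:43736895-43772854, 6 domains took in 46 of the 47 regions, at 1.31 regions per kb, the densest of the blocks named here. In that block 4M ZT4 held 8 regions.

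Domains occurred on every chromosome. The share of regions that lay in domains was 7.48% on chromosome 25, 7.14% on chromosome 6 and 6.95% on chromosome 3, and 3.18% on chromosome 8. Chromosomes 3 and 6 had the most domains, 72 each. The part of chromosome 4 up to 25 Mb had the lowest share, 1.56%, with 6 domains. Without chromosome 4, 344 of 1163 domains (29.6%) lay in the outer 10% at either end of a chromosome, measured up to its last region, against 23.7% of all regions.

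Few genes that the study listed by expression lay at a domain. Only their names and positions were used here. Of 351 annotated loci, 8 (2.28%, 95% interval 0.989 to 4.44) had a domain over them or within 3000 bp, and 252 (71.8%) had any region. Of 553 unannotated loci, 18 (3.25%, 1.94 to 5.10) had a domain and 306 (55.3%) any region. The intervals of both shares overlap. No share was taken over genes outside these lists, and the domains together span only 2.19 Mb. Whether the listed loci differ from other genes was therefore not tested. Exon and intron positions were not analysed here.

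Of the 8 annotated genes, 3 had domains with no peak in either 4M list. Over all domains, 24.6% had peaks at 20M ZT16 alone and 0.941% in both 20M lists and no other. A difference of the 8 genes from these shares was not tested. At gldc, which encodes glycine decarboxylase of the glycine cleavage system, the domain chr5:65505986-65508159 has 4 regions, all held by 20M ZT16 alone with scores of 12 to 25. At nr1d4b, a nuclear receptor gene of the Rev-erb family that acts in the circadian clock, chr11:2051817-2053981 has 4 regions, again of 20M ZT16 alone, with scores of 16 to 19. At slc2a1a, a gene for a glucose transporter of the GLUT1 type, chr23:22240444-22242226 has 3 regions, of which 20M ZT16 held 2 and 20M ZT4 held 1, with no score above 17. All 3 domains overlap their gene, and all 3 are built of weak calls.

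The other 5 genes had domains that were listed in young and old brain. At igfn1.1, an immunoglobulin-like and fibronectin domain gene, chr6:46922880-46924384 has 3 regions, all held by 4M ZT4, 4M ZT16 and 20M ZT16, with 2 held by 12M ZT16 and 2 by 20M ZT4. Its highest score was 441 for 20M ZT16 and 234 for 4M ZT4, the strongest of the gene domains. At col11a1b, a collagen XI chain gene, chr2:15761599-15763347 has 3 regions, of which the 4M ZT4 and 20M ZT16 lists held 3, the 4M ZT16 list 2, and the 12M ZT16 and 20M ZT4 lists 1 each.

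At hspa4a, a gene of the heat shock protein 70 superfamily, chr21:43162610-43163797 has 3 regions, of which both 4M lists held 2 and 20M ZT16 held 3. Near hells, which encodes a chromatin remodelling helicase that in mammals is needed for DNA methylation of repeats, chr13:7920652-7922473 lies 611 bp from the gene. Of its 3 regions, the 20M ZT16 list held 3, the 4M ZT4 list 2, and the 4M ZT16, 12M ZT16 and 20M ZT4 lists 1 each. Near txlnbb, chr17:6227922-6228972 lies 79 bp away, and both 4M lists and 20M ZT16 held all 3 regions.

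The number of domains was also taken list by list. When domains were built within each list alone, 20M ZT16 gave 1147 domains with 5.13% of its regions and up to 18 regions in one. The 4M ZT4 list gave 448 (2.18%, at most 6 regions), 4M ZT16 gave 268 (1.57%, at most 5), 20M ZT4 gave 31 (0.534%, at most 4), 12M ZT16 gave 16 and 12M ZT4 none. When each of the 4M and 20M lists was cut to its 19177 highest scores, the length of the 20M ZT4 list, the 4M ZT4 list gave 29 domains, 4M ZT16 gave 30, 20M ZT4 gave 31 and 20M ZT16 gave 20, with at most 4 regions in any. The lowest score kept was 143 and 86 in the 4M lists (ZT4 and ZT16) and 268 in the 20M ZT16 list, while 20M ZT4 stayed whole with scores from 10. The cut changed length and score together, so their parts in the loss of the longer chains cannot be told apart. The 12M lists were too short for it.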

How the data were processed

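The authors aligned H3K9me3 reads by Bowtie2, with GRCz10 as the genome, and used MACS2 on each triplicate at an FDR of 0.01 or less. Per the deposited lists, every peak has a start, an end and a score, whose scale is not named. The lowest score is 10, and how scores relate to the FDR was not tested. The control library used in calling is not given in the sources used here. The lists hold no read count and no value per library, so the part of depth and of the calling in the number of weak peaks was not tested.

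Peaks of the 6 lists that overlapped by 1 bp or more were merged, regions 1000 bp or less apart were chained, and runs of 3 or more were kept. A list held a region when one of its peaks overlapped it by 1 bp or more. Scores were ranked within each list. The members and lists were chosen with earlier results of these data known. Named domains were the 5 with the most regions, the 5 longest, the 5 most evenly spaced of those with 5 or more regions, the 5 held in full by the most lists, and for each list up to 2 with the most regions that it alone, or it alone of its age, held. Named genes were the annotated loci with a domain within 3000 bp. Intervals are exact binomial. Alternatives changed the spacing, the number of regions, the score, the overlap, the chromosomes, the lists and the flank. The work ran in Python 3.11.15 (pandas 2.3.3, numpy 2.4.6, matplotlib 3.10.9, scipy 1.17.1), merging was compared with bedtools 2.31.1, and the chaining was tested on simulated data. No genome of the files' build was used here, so no sequence is shown.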

Additional observations from a re-analysis of the deposited data

Results flagged for a closer look

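The ratio of ZT16 to ZT4 pointed in opposite directions at the 2 ages. On the log2 scale, the number of domain regions held at ZT16 over that at ZT4 was -0.45 at 4M and 2.85 at 20M, beside -0.30 and 2.22 over all regions. The ratio of 20M to 4M was -1.84 at ZT4 and 1.46 at ZT16, beside -1.89 and 0.64 over all regions. These differences were not tested, since each group is 1 list. The same opposite directions are present in all regions, and the length of the lists moves with them.

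Domains by the same rule also lay on sequence that the rule sets aside. Chromosome 4 from 25 Mb had 223 domains with 1265 of its 4605 regions (27.5%), up to 56 regions in one. There the 4M ZT4 list held 72.8% of the domain regions and the 20M ZT16 list 58.5%, the reverse of their order in domains on the other chromosomes. The unplaced scaffolds had 76 domains with 312 of 2929 regions (10.7%), of which 20M ZT16 held 87.5% and 4M ZT4 held 41.3%. No control list was at hand to set beside them. The share of all regions on these sequences that each list held was not taken. Whether the reversed order is particular to domains was therefore not tested.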

How the results depend on the processing

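No paired analysis was possible because each group has 1 list made from 3 libraries, so replicate numbers carry no values. For the same reason no library could be left out. In all, 94 of 257 alternative values moved by less than the counting interval (1.5 times for counts) and 163 by more. These counts and shares have no sign, but some lists turned from a lower to a higher share in domains than over all regions. This was seen under the score filters and with runs of 2 or more regions. With scores of at least 20 these were 20M ZT4 (21.6 against 21.3%), 12M ZT16 (3.98 against 3.45%) and the 12M ZT4 list of 29 peaks (0.0458 against 0.0250%). With at least 30, 4M ZT16 turned as well (71.4 against 71.1%). With runs of 2 or more regions, 12M ZT16 turned (10.7 against 9.39%). So did 20M ZT4 (21.03 against 21.02%) and 12M ZT4 (0.0389 against 0.0313%). No interval was taken for the shares under these settings, so the smaller of these turns may lie within counting error. The cause was not tested, except that a filter or a dropped list removes regions by construction.

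The number of domains was 548 with neighbours at most 500 bp apart, 2428 at 2000 bp, 355 with 4 or more regions, 7992 with 2 or more, 682 with scores of at least 20, 576 with scores of at least 30, 465 without the 20M ZT16 list and 2353 when overlap had to cover 50% of both peaks. The shares held below are in the order 4M ZT4, 4M ZT16, 12M ZT16, 20M ZT4 and 20M ZT16 unless named. At 500 bp they were 35.2, 23.5, 5.36 and 9.75% for the first 4. At 2000 bp they were 59.3, 45.9, 7.95, 16.5 and 96.2%. With 4 or more regions they were 25.2, 12.9, 2.12, 5.14 and 94.1%, and with 2 or more 68.9, 55.4, 10.7, 21.0 and 97.5%. The 12M ZT4 share was 0% at 500 bp and with 4 or more regions, which allows up to 0.161% and 0.159% as 3 divided by the regions. With scores of at least 20 all 5 shares were 73.7, 61.1, 3.98, 21.6 and 98.5%, and with at least 30 they were 85.4, 71.4, 0.779, 20.3 and 99.7%. With chromosome 4 kept whole, 4M ZT4, 4M ZT16, 12M ZT16 and 20M ZT16 had 53.2, 31.9, 5.19 and 86.8%, and with all sequences 52.5, 31.4, 5.28 and 86.9%. Without the 20M ZT16 list the first 4 had 97.9, 75.7, 14.6 and 28.1%. With 50% overlap 4M ZT16, 12M ZT16, 20M ZT4 and 20M ZT16 had 37.1, 11.4, 18.2 and 75.7%. Leaving out a list, adding sequence or changing the overlap also changes the set of all regions. The share of that set held by each list was not taken. Domain shares under those settings therefore cannot be set beside the shares over all regions given above. Without neighbourhoods of 4 or more domains, an alternative chosen after seeing the data, the first 4 had 57.1, 43.1, 8.03 and 16.3%. With a flank of 0 bp, 16 loci had a domain instead of 26. Without the 12M lists no share or count above moved. Lists of equal length, also chosen after seeing the data, gave 20 to 31 domains a list.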
